A study of Mus musculus with 9 samples.

Results

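Transcripts of 10 genes of glycolysis and lactate metabolism were followed in undifferentiated spermatogonia of the mouse testis. The genes encode the glucose transporter Slc2a1, the hexokinases Hk1 and Hk2, glucose phosphate isomerase (Gpi1), the phosphofructokinases Pfkl and Pfkp, the aldolases Aldoa and Aldoc, lactate dehydrogenase A (Ldha) and pyruvate dehydrogenase kinase 1 (Pdk1). They were chosen by name, as genes of glucose entry, of glycolytic steps and of the lactate end of the pathway. Earlier results of these data were known when the genes were chosen. All 10 were found among the 23813 entries of the expression table, 1 entry each. Levels are given in FPKM, fragments scaled to transcript length and to the mapped fragments of the library, so levels of different genes are compared per length.

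Glycolysis splits glucose into pyruvate in the cytosol and yields ATP without oxygen. Lactate dehydrogenase converts pyruvate to lactate and back, while the pyruvate dehydrogenase complex, which Pdk1 inhibits, converts pyruvate to acetyl-CoA inside the mitochondrion. In the testis, Sertoli cells are known to release lactate, which germ cells take up, and hypoxia-inducible factor (HIF) and MYC are known activators of many glycolytic genes.

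The cells came from LT-11B6 mice, an Id4-eGfp transgenic line on a C57BL/6 background, and every group carried this transgene. Testes of male pups at postnatal day 6 were dissociated, and cells were sorted for EGFP, which marks the Id4-expressing end of the undifferentiated spermatogonia. The 3 groups of 3 libraries each were all ID4-EGFP+ cells, the 1/3 of cells stained most strongly with an antibody against the tetraspanin TSPAN8 (TSPAN8-high), and the 1/3 stained most weakly (TSPAN8-low). Each library was a separate preparation, but the labels do not say whether preparations came from separate litters or how many pups were pooled. The p-values therefore reflect only the spread between preparations, which may be technical.

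The libraries had relative depths of 0.856 to 1.05 of all ID4-EGFP+ replicate 1, and their absolute depth is unknown. Tspan8 differed between the fractions in the direction of the sort, with 43.7, 29.6 and 28.8 FPKM in TSPAN8-high against 6.66, 10.8 and 11.8 in TSPAN8-low (log2 fold change 1.72, limma adjusted p = 0.00246). Id4 did so too, at 67.2 ± 7.17 against 26.2 ± 8.14 FPKM (SD, n = 3 each, log2 fold change 1.37, limma adjusted p = 0.00567). The Id4 call was lost without all libraries of replicate 2 (limma adjusted p = 0.0951). All 10 spermatogonia markers examined reached 1 FPKM in at least 3 libraries, with summed levels of 1870 to 2575 FPKM. Markers of Sertoli cells were also present and moved with the sort: their sum over 12 genes was 89.2, 98.6 and 224 FPKM in TSPAN8-high replicates 1 to 3, 17.0, 44.2 and 104 in all ID4-EGFP+, and 11.8, 21.3 and 138 in TSPAN8-low. Their most abundant members were Clu (up to 60.6 FPKM), Cst9 (54.9), Cst12 (44.6), Inha (29.7) and Aard (27.1), each higher in TSPAN8-high in all 3 pairs of same-numbered libraries. Of the defining markers, Sox9 was at 0.0115 to 0.197 FPKM, and Amh was at 0.278, 0.150 and 0.714 FPKM in TSPAN8-high against 0.0364, 0 and 0.105 in TSPAN8-low. The low markers Gata4, Fshr and Dhh were likewise higher in TSPAN8-high within each number. Sox9 was lower in TSPAN8-high for replicates 1 and 2 (0.591 and 0.912 times TSPAN8-low) and higher for replicate 3 (1.91 times). Wt1, also low, was higher in TSPAN8-high for replicates 1 and 2 and lower for replicate 3 (0.89 times). Peritubular myoid markers summed to 3.66, 3.57 and 7.63 FPKM in TSPAN8-high against 1.55, 2.44 and 3.73 in TSPAN8-low, higher in all 3 pairs. Leukocyte markers summed to 13.8, 16.3 and 15.7 FPKM in TSPAN8-high against 6.53, 10.7 and 15.9 in TSPAN8-low. Most of this was Cd68, which passed with the replicate block described below (adjusted p = 0.0384, and 0.192 without it), while Csf1r and Adgre1 were above 0 only in TSPAN8-high replicates 2 and 3 (up to 0.711 FPKM). Cd14, the other tested leukocyte marker, went the other way: it was higher in TSPAN8-high in 0 of 3 pairs (log2 fold change -0.28, limma adjusted p = 0.479). Sums over the markers of Leydig (up to 6.48 FPKM, in TSPAN8-low replicate 3), endothelial (up to 1.40) and red blood cells (up to 0.833) were low.

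The 10 genes spanned more than 3 orders of magnitude in level. In each group Aldoa was the most abundant, followed by Gpi1, Aldoc, Pdk1, Ldha, Slc2a1 and Hk2, then Hk1 and Pfkp, and Pfkl was last. Ranges of neighbours in this order overlapped for Pdk1 and Ldha in TSPAN8-high, for Ldha and Slc2a1 in TSPAN8-low, and for Hk1 and Pfkp in every group. All other neighbours were separated in all 3 libraries of the group. Replicate 1 was the lowest of its group in all 3 groups for 6 of the 10 genes, so values of the same replicate number are also set side by side below. The labels do not say what a replicate number marks, and the pairing by number was inferred from these same data.

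**Figure D1:**
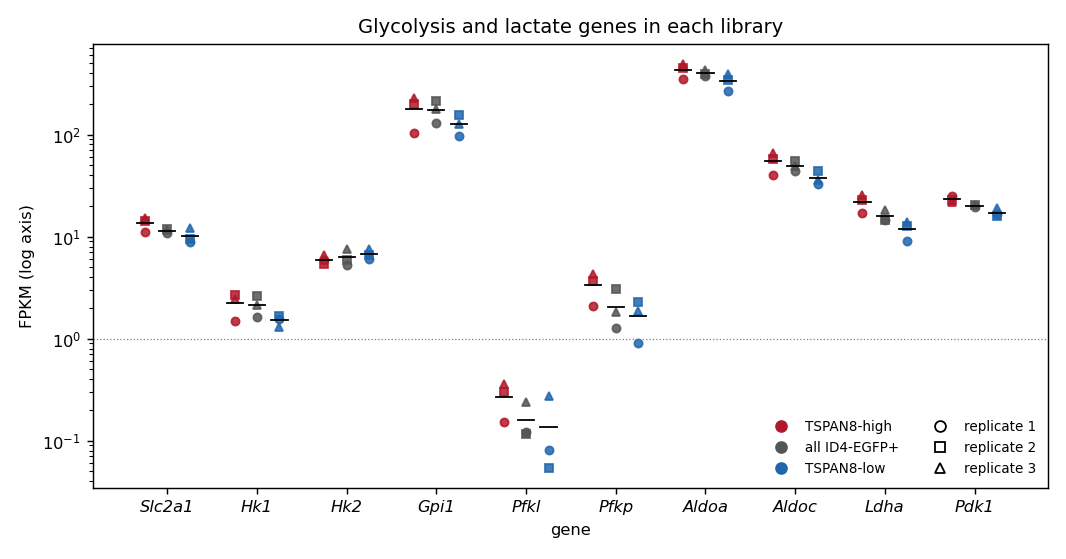
Level of each gene in FPKM (log axis) in the 9 libraries, coloured by group, with the replicate number as symbol and the group mean as a black bar. The dotted line marks the minimum of 1 FPKM for testing, and Pfkl lies below it in every library, while Aldoa reaches 490 FPKM in TSPAN8-high replicate 3.

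TSPAN8-high was compared with TSPAN8-low to ask how the pathway differs between cells with much and with little of the surface protein. Ldha rose in TSPAN8-high, and 8 of the 9 tested genes had estimates above 0, Hk2 being the exception. Ldha was the 1 gene of 9 that passed the limma test (adjusted p under 0.05 over 11142 tested genes), where 5.56% of all tested genes passed. With the replicate number as a block, which compares libraries of the same number, 7 of the 9 passed, all higher: Slc2a1, Gpi1, Pfkp, Aldoa, Aldoc, Ldha and Pdk1. In that fit 19.1% of all tested genes passed and 11.8% were higher. The same 7 genes were higher in TSPAN8-high in all 3 pairs of same-numbered libraries, against 31.4% of all tested genes, and Ldha and Pdk1 (2 of 9) were higher without any overlap of the fractions, against 15.9%. The median log2 fold change of the 9 was 0.41, against 0.05 over all tested genes. Since these are libraries of sorted bulk cells, fewer cells of a type and less RNA per cell cannot be told apart.

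Glucose enters these cells through facilitative transporters, of which Slc2a1 (GLUT1) had the highest level. Slc2a1 stood at 11.2, 14.2 and 15.2 FPKM in TSPAN8-high, at 10.9, 11.8 and 11.7 in all ID4-EGFP+ and at 8.76, 9.41 and 12.02 in TSPAN8-low. The highest TSPAN8-low library lay above the lowest TSPAN8-high library, but within each replicate number TSPAN8-high was 1.26 to 1.51 times TSPAN8-low. Its log2 fold change of 0.39 (SE 0.16) had an adjusted p of 0.179 by limma and of 0.0421 with the replicate block. Slc2a1 made up 66.9% to 77.2% of the summed FPKM of 11 transporters in the 9 libraries, and Slc2a8, the next, 12.2% to 21.3%. Slc2a8 was the 1 of 11 other glucose transporters that could be tested (log2 fold change 0.13, limma adjusted p = 0.750).

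The hexokinases, which trap glucose as glucose 6-phosphate, had estimates of opposite sign. Hk2 stood at 5.88, 5.44 and 6.54 FPKM in TSPAN8-high, 5.32, 5.91 and 7.59 in all ID4-EGFP+, and 6.08, 6.56 and 7.64 in TSPAN8-low. Its level was lower in TSPAN8-high within each replicate number, by small amounts (0.829 to 0.967 times), and the ranges overlapped. The log2 fold change of -0.16 (SE 0.16) did not pass (limma adjusted p = 0.602, and 0.393 with the replicate block). Hk1 stood at 1.49, 2.69 and 2.47 FPKM in TSPAN8-high, 1.61, 2.61 and 2.13 in all ID4-EGFP+, and 1.55, 1.68 and 1.31 in TSPAN8-low. It was higher in TSPAN8-high for replicates 2 and 3 and not for replicate 1, with a log2 fold change of 0.34 (SE 0.18, limma adjusted p = 0.300, and 0.127 with the block).

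As a share of the summed FPKM of 5 hexokinase genes, Hk2 made up 73.0%, 63.6% and 69.0% in TSPAN8-high and 76.8%, 77.5% and 80.9% in TSPAN8-low. The means were 68.5% ± 4.72 and 78.4% ± 2.19 (SD, n = 3 each), and the fractions did not overlap. By exact permutation (two-sided) p was 0.1, the lowest value possible with 3 libraries a group (0.56 after Benjamini-Hochberg adjustment over 28 isozyme shares). Hk1 took most of the remainder, with 25.3% ± 6.52 in TSPAN8-high and 17.8% ± 3.37 in TSPAN8-low (SD, n = 3 each, exact permutation p = 0.3, adjusted 0.764). In all ID4-EGFP+ cells Hk2 made up 70.0% ± 5.22 (SD, n = 3). The shares within a family sum to 100%, so these are not independent results.

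Gpi1, which converts glucose 6-phosphate to fructose 6-phosphate, varied more between replicates than between groups. It stood at 104.5, 201 and 230 FPKM in TSPAN8-high, 129, 215 and 177 in all ID4-EGFP+, and 97.0, 155 and 127 in TSPAN8-low. Within replicate numbers the ratio of TSPAN8-high to TSPAN8-low was 1.08, 1.30 and 1.82. Gpi1 thus had a log2 fold change of 0.44 (SE 0.29), with an adjusted p of 0.394 by limma and of 0.0449 with the replicate block.

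Phosphofructokinase catalyses the committed step of glycolysis, and its liver (Pfkl), platelet (Pfkp) and muscle (Pfkm) forms were all low. Pfkp stood at 2.09, 3.70 and 4.26 FPKM in TSPAN8-high, 1.27, 3.04 and 1.83 in all ID4-EGFP+, and 0.907, 2.26 and 1.87 in TSPAN8-low. Replicate 1 was the lowest in each group, and within replicate numbers TSPAN8-high was 1.64 to 2.30 times TSPAN8-low. For Pfkp the log2 fold change was 0.70 (SE 0.27), with an adjusted p of 0.150 by limma and of 0.00778 with the replicate block. Pfkl, at 0.0544 to 0.357 FPKM, was under the minimum for testing. Its values were 0.152, 0.299 and 0.357 FPKM in TSPAN8-high, 0.122, 0.117 and 0.242 in all ID4-EGFP+, and 0.0817, 0.0544 and 0.276 in TSPAN8-low, so it too was higher in TSPAN8-high within each number although the fractions overlapped. Pfkp made up 62.5% ± 3.11 of the summed FPKM of the 3 forms in TSPAN8-high and 56.7% ± 8.66 in TSPAN8-low (SD, n = 3 each, exact permutation p = 0.4, adjusted 0.8), and Pfkl 4.95% and 4.69%.

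The aldolases cleave fructose 1,6-bisphosphate, and both forms kept a nearly fixed proportion. Aldoa stood at 349, 449 and 490 FPKM in TSPAN8-high, 379, 390 and 430 in all ID4-EGFP+, and 270, 342 and 389 in TSPAN8-low. The fractions overlapped, but the ratio within replicate numbers was 1.29, 1.31 and 1.26. For Aldoa the log2 fold change was 0.37 (SE 0.18), with an adjusted p of 0.251 by limma and of 0.0391 with the block. Aldoc stood at 40.6, 57.9 and 65.6 FPKM in TSPAN8-high, 43.8, 54.6 and 49.0 in all ID4-EGFP+, and 32.7, 44.4 and 35.9 in TSPAN8-low. Its log2 fold change was 0.51 (SE 0.19), with an adjusted p of 0.144 by limma and of 0.0173 with the block. Aldoa made up 87.7% to 91.6% of the summed aldolase FPKM over the 9 libraries, and its mean share was 88.8% in TSPAN8-high and 89.8% in TSPAN8-low (exact permutation p = 0.6, adjusted 0.84).

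**Figure D2:**
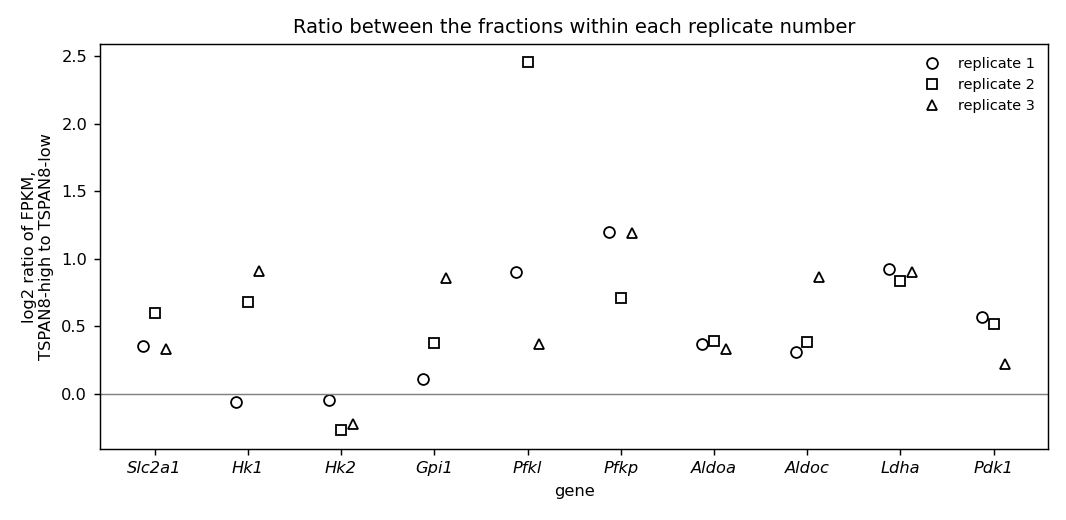
log2 ratio of the FPKM in TSPAN8-high to that in TSPAN8-low for each gene, computed between libraries of the same replicate number (circle 1, square 2, triangle 3). All 3 symbols lie above 0 for 8 of the 10 genes, all 3 lie below 0 for Hk2, and the 3 ratios of Ldha (1.90, 1.79 and 1.87 before the log) nearly coincide.

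Ldha, the lactate dehydrogenase subunit known as the muscle form, rose in TSPAN8-high. It stood at 17.1, 22.9 and 25.7 FPKM in TSPAN8-high, 14.6, 14.7 and 18.4 in all ID4-EGFP+, and 8.99, 12.8 and 13.8 in TSPAN8-low. Every TSPAN8-high library lay above every TSPAN8-low library, and the mean level was 1.85 times as high (21.9 ± 4.41 against 11.9 ± 2.53 FPKM, SD, n = 3 each). The log2 fold change was 0.835 (SE 0.20, limma adjusted p = 0.0304, and 0.00112 with the replicate block). Without the block, the call was lost on leaving out replicate 2 (adjusted p = 0.113) or 3 (0.111) of TSPAN8-high, and replicate 1 (0.0919) or 2 (0.0613) of TSPAN8-low. It was also lost without all libraries of replicate 2 (0.215) or 3 (0.127). With the block it held without any 1 of the 9 libraries (adjusted p from 0.000716 to 0.00893).

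The other subunit, Ldhb, was more abundant than Ldha in every library. Ldhb stood at 56.8, 68.3 and 92.8 FPKM in TSPAN8-high, 43.4, 53.4 and 67.3 in all ID4-EGFP+, and 19.2, 37.5 and 57.9 in TSPAN8-low. Its log2 fold change of 1.01 (SE 0.33) passed only with the block (limma adjusted p = 0.0941, and 0.00174 with the block). The testis-specific subunit Ldhc was at 4.86 ± 0.685 FPKM in TSPAN8-high against 3.11 ± 0.996 in TSPAN8-low (SD, n = 3 each, log2 fold change 0.54, limma adjusted p = 0.123, and 0.0460 with the block). The share of Ldha among the 3 subunits was 22.1% ± 1.41 in TSPAN8-high and 23.9% ± 5.79 in TSPAN8-low (SD, n = 3 each, exact permutation p = 0.7, adjusted 0.891), with a range of 18.2% to 29.8%. Ldhb made up 63.6% to 76.7% over the 9 libraries.

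**Figure D3:**
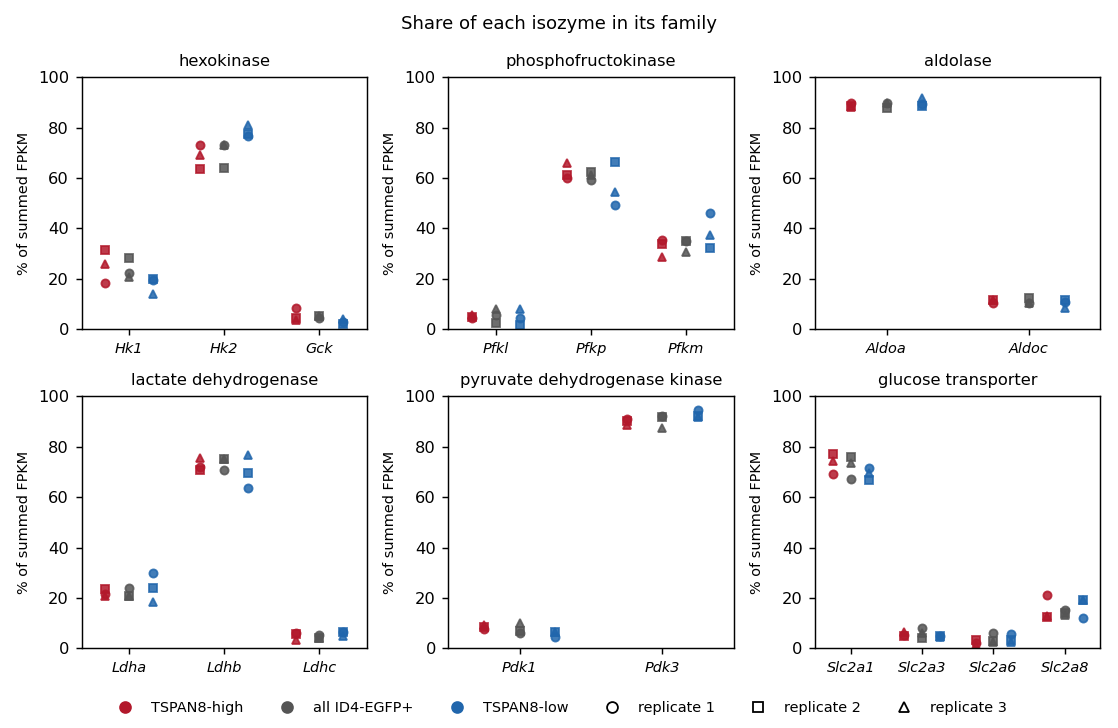
Share of each isozyme in the summed FPKM of its family (percent, isozymes that stayed at or under 5% in every library left out), in the 9 libraries, by group (colour) and replicate number (symbol). Hk2 and Pdk1 are the genes among the 10 whose shares did not overlap between TSPAN8-high and TSPAN8-low, and Ldhb exceeds Ldha in every library.

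The promoters of Ldha are shown because Ldha was the gene that passed in both fits. Below are the 250 bases before each of its RefSeq starts (build GRCm38.p6, plus strand, chr7:46845554-46845803 and chr7:46846832-46847081), 5′ to 3′. This build is later than the mm9 build of the expression values. Bnip3, a HIF-responsive gene that fell in TSPAN8-high (values below), is shown beside them (minus strand, chr7:138909507-138909756, 13 of its bases lying in an annotated exon of the gene). Capitals mark ACGTG or GCGTG on either strand, the core letters bound by HIF.
Ldha upstream start: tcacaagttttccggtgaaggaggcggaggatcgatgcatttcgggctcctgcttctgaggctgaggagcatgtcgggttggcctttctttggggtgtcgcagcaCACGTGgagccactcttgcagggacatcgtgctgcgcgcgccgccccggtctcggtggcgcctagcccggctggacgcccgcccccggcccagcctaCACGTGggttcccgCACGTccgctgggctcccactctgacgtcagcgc
Ldha downstream start: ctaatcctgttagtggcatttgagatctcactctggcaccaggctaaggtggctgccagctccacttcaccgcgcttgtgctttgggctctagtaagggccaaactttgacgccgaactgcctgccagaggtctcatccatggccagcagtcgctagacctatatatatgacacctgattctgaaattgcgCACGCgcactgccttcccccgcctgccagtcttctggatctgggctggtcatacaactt
Bnip3: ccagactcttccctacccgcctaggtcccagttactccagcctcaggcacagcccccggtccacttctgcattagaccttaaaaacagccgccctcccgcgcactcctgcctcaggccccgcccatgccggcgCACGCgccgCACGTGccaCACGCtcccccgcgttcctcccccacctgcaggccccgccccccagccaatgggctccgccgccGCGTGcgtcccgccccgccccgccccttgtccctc
The upstream Ldha window held 3 capital runs, 2 of which were the palindrome CACGTG, the E-box letters bound by MYC and related factors. The downstream Ldha window held 1 run and the Bnip3 window held 4, 1 of which was CACGTG. The counts of ACGTG and CACGTG for Ldha rest on the upstream window alone. Among the 10 genes, with 16 windows in all, ACGTG was found for 4, GCGTG for 7, either for 9 (all but Gpi1) and CACGTG for Ldha alone. Some of these windows overlapped annotated exons of their own gene. The overlap was 121 bases in the Hk1 window with GCGTG, and 105 and 136 in the Aldoc windows. It was all 250 bases in a Pdk1 window without a match. Over 8335 tested genes with a RefSeq promoter, counting any window of the gene and both strands, the shares were 26.3% for ACGTG, 52.1% for GCGTG, 63.6% for either and 10.7% for CACGTG, which itself contains ACGTG. Among all 32851 single windows they were 16.6%, 28.2%, 38.6% and 6.0%. A match describes the letters of the window and is not a binding site.

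Pdk1, which phosphorylates and inactivates pyruvate dehydrogenase, was higher in every TSPAN8-high library than in every TSPAN8-low library. It stood at 25.0, 22.6 and 22.0 FPKM in TSPAN8-high, 19.6, 20.2 and 20.2 in all ID4-EGFP+, and 16.8, 15.8 and 18.9 in TSPAN8-low. The 3 all ID4-EGFP+ values lay between the fractions, which is no separate result, since those cells include both fractions. For Pdk1 the log2 fold change was 0.41 (SE 0.13), with an adjusted p of 0.0952 by limma and of 0.0279 with the block. Most transcripts of the family were those of Pdk3, and Pdk1 made up 8.42% ± 0.900 of the summed FPKM in TSPAN8-high against 5.94% ± 1.08 in TSPAN8-low (SD, n = 3 each). These shares did not overlap, and the exact permutation test gave its smallest p of 0.1 (adjusted 0.56).

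The calls made with the block depended on scaling and on single libraries. With the authors' normalized values in the blocked fit 4 of the 9 genes passed (Pfkp, Aldoa, Aldoc and Ldha), and after setting a common median per library 3 did (Pfkp, Aldoc and Ldha). Over all 11142 tested genes 927 passed as higher and 1018 as lower with the former, and 825 and 1168 with the latter. In the blocked fit as deposited 1313 and 818 did. Leaving out 1 library at a time from the blocked fit left 2 to 7 calls, the fewest without TSPAN8-high replicate 3. In that fit 638 of 11037 tested genes passed as higher and 431 as lower. The direction was kept: 8 of the 9 estimates were above 0 under each of these settings. The median of all tested genes was 0.05 as deposited, 0 with the authors' normalized values and -0.04 with a common median.

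Within each replicate number the Sertoli marker sums of TSPAN8-high exceeded those of TSPAN8-low, as did the levels of 7 of the 9 tested genes. Of 6 tested Sertoli markers, 0 passed in limma (5 had an unadjusted p under 0.05) and 5 passed with the block. With the mean log2 level of the Sertoli markers as a covariate the log2 fold change of Ldha was 0.55 (limma adjusted p = 0.146). In that fit 0 of the 9 genes passed, while 8 estimates stayed above 0. Over all 11142 tested genes 112 passed as higher and 173 as lower, against 380 and 239 without covariate or block. With the covariate and the block together the fold change of Ldha was 1.04 (adjusted p = 0.349), and 2 of all 11142 tested genes passed. In that fit neither Tspan8, the gene of the sort (log2 fold change 0.675, limma adjusted p = 0.649), nor Id4 (0.345, 0.749) passed. The part of Sertoli cell RNA in the differences between the fractions was not otherwise tested, and that of myoid and leukocyte RNA was not tested.

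TSPAN8-high and TSPAN8-low were each compared with all ID4-EGFP+ cells, the same 3 libraries serving in both comparisons. In TSPAN8-high against all ID4-EGFP+, 0 of the 9 genes passed by limma or with the block (1 had an unadjusted p under 0.05), where 0.144% and 3.09% of all tested genes passed. The log2 fold changes ran from -0.06 to 0.52. In TSPAN8-low against all ID4-EGFP+, 0 of the 9 passed by limma or with the block (0 had an unadjusted p under 0.05), and over all tested genes 0% and 0.0449% did. The log2 fold changes ran from -0.45 to 0.10. Ldha differed from all ID4-EGFP+ by 0.43 in TSPAN8-high (limma adjusted p = 0.513, and 0.0841 with the block) and by -0.41 in TSPAN8-low (0.600, and 0.130 with the block). Its mean of 15.9 ± 2.17 FPKM in all ID4-EGFP+ cells (SD, n = 3) lay between those of the fractions, which these cells include.

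The tested genes most like Ldha over the 9 libraries, by the mean absolute difference in log2(FPKM + 1) after centring each gene on its mean, were Sephs1 (0.06), Itgb5 (0.08), Smoc2 (0.08), Trim12a (0.09) and Slc9a3r1 (0.09). The median over all tested genes was 0.35. Slc9a3r1, which encodes a scaffold protein of the cell cortex, stood at 24.8, 26.7 and 30.4 FPKM in TSPAN8-high against 10.2, 14.3 and 13.8 in TSPAN8-low. Of the 5, none is an enzyme of glycolysis.

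Of 14 other glycolytic genes 8 were tested, 0 passed in limma (0 at an unadjusted p under 0.05), and 2 passed with the block, both higher in TSPAN8-high. These were Pkm, which makes pyruvate (log2 fold change 0.85, limma adjusted p = 0.240, and 0.00298 with the block), and Tpi1, which interconverts the triose phosphates (0.55, 0.234 and 0.00778). Pkm stood at 70.7, 183 and 197 FPKM in TSPAN8-high against 50.6, 111 and 76.3 in TSPAN8-low. Replicate 1 was the lowest in both fractions, and the fractions overlapped. Pfkm (0.37, limma adjusted p = 0.272) and Pgam1 (0.14, 0.629) did not pass in either fit. Gapdh, the most abundant enzyme of the pathway here, was at 1839 ± 275 FPKM in TSPAN8-high against 1760 ± 361 in TSPAN8-low (SD, n = 3 each). The list's median log2 fold change was 0.14, against 0.41 for the 9 genes.

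Isozymes of the sperm form of the pathway ranged from 0 to 20.2 FPKM. Of 6, 3 were tested, 0 passed in limma (3 had an unadjusted p under 0.05) and 3 passed with the block, all higher. Pgk2 stood at 2.67, 0.951 and 1.50 FPKM in TSPAN8-high against 0.957, 0.277 and 0.516 in TSPAN8-low (log2 fold change 0.75, limma adjusted p = 0.150, and 0.00401 with the block). It reached 1 FPKM in 3 libraries, 2 of them TSPAN8-high and none TSPAN8-low, so it entered the test through the group where it was high and its call supports nothing. Pdha2, the testis form of the pyruvate dehydrogenase subunit, was the most abundant of the list, at 15.7, 20.2 and 18.4 FPKM in TSPAN8-high against 12.2, 16.5 and 11.5 in TSPAN8-low. Its log2 fold change was 0.42 (0.187, and 0.0301 with the block). In the 9 blocked fits that each left out 1 library, Pdha2 passed in 4 and Ldhc in 3. Gapdhs was listed at 0 in 8 of the 9 libraries and Aldoart1 in all 9.

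Among 7 regulators of glycolysis 4 were tested, 0 passed in limma (1 at an unadjusted p under 0.05) and 1 passed with the block. This was Txnip, whose product restrains glucose uptake. Txnip stood at 50.8, 91.2 and 96.1 FPKM in TSPAN8-high, 45.9, 84.7 and 57.8 in all ID4-EGFP+, and 28.7, 46.8 and 39.5 in TSPAN8-low. The fractions did not overlap, and the log2 fold change was 1.01 (SE 0.28, limma adjusted p = 0.0555, and 0.000682 with the block). The 2 tested genes of 7 of gluconeogenesis and the 5 tested of 7 MYC-family factors did not pass in either fit (0 of each at an unadjusted p under 0.05).

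No transporter of lactate or pyruvate passed in either fit. Of 10 genes of lactate and pyruvate handling 6 were tested, 0 passed in limma (1 at an unadjusted p under 0.05), and Ldhb (above) passed with the block. The lactate transporter Slc16a1 stood at 23.3, 25.2 and 21.5 FPKM in TSPAN8-high against 32.5, 29.8 and 24.4 in TSPAN8-low (log2 fold change -0.29, limma adjusted p = 0.265, and 0.0972 with the block). Its chaperones Bsg (-0.21, 0.447 and 0.198) and Emb (0.27, 0.339 and 0.108) did not pass either. The exporter Slc16a3 was at 0.0467 to 0.358 FPKM, under the minimum for testing, while Mpc2, of the mitochondrial pyruvate carrier, was at 1016 to 1418 FPKM.

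The pyruvate dehydrogenase complex and its regulators were represented by 10 tested genes of 11, of which Pdha1, the catalytic subunit, rose. Pdha1 stood at 29.3, 39.6 and 39.9 FPKM in TSPAN8-high, 25.9, 33.0 and 32.4 in all ID4-EGFP+, and 19.4, 25.9 and 22.0 in TSPAN8-low. The fractions did not overlap, and the log2 fold change was 0.67 (SE 0.17, limma adjusted p = 0.0451, and 0.00200 with the block). The call without the block was lost with the authors' normalized values (adjusted p = 0.0662), a common median (0.0761), no filter on low values (0.0885), only the 2 fractions fitted (0.0621) and the Sertoli score as covariate (0.171). It was also lost on leaving out replicate 2 (0.176) or 3 (0.155) of TSPAN8-high, any replicate of TSPAN8-low (1 to 3 in order: 0.127, 0.0613 and 0.0947), and replicate 3 of all ID4-EGFP+ (0.0590). With the block it held without any 1 library, and it was lost with block and Sertoli score together (0.345). Dlat (0.31, limma adjusted p = 0.198), Pdk2 (0.23, 0.507) and Dld (0.18, 0.624) did not pass in either fit.

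Of 8 genes of the pentose phosphate pathway, the branch that leaves glycolysis at glucose 6-phosphate, 7 were tested and Rpe fell. Rpe, which interconverts pentose phosphates, stood at 6.39, 6.76 and 6.12 FPKM in TSPAN8-high, 7.91, 7.78 and 8.65 in all ID4-EGFP+, and 11.1, 11.3 and 10.4 in TSPAN8-low. The 3 groups did not overlap, and the log2 fold change was -0.68 (SE 0.13, limma adjusted p = 0.0133, and 0.00275 with the block). The call without the block was lost without TSPAN8-high replicate 2 (0.0534) or 3 (0.0515), without all libraries of replicate 1 (0.0575), 2 (0.177) or 3 (0.122), and with the Sertoli score (0.0525, and 0.567 with score and block). G6pdx, the entry enzyme (0.56, limma adjusted p = 0.0820, and 0.00893 with the block), and Tkt (0.55, 0.0980 and 0.0223) were higher with the block, and Pgls (-0.23, 0.479 and 0.245) did not pass. With 1 library left out of the blocked fit in turn, G6pdx passed in 8 of 9 fits and Tkt in 5.

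All 16 genes of the TCA cycle were tested, 0 passed in limma (3 at an unadjusted p under 0.05), and with the block 2 were higher and 1 lower. Ogdh stood at 51.8, 65.9 and 91.3 FPKM in TSPAN8-high, 129, 119 and 166 in all ID4-EGFP+, and 89.8, 154 and 143 in TSPAN8-low. Its log2 fold change was -0.88 (limma adjusted p = 0.0549, and 0.00282 with the block). Dlst (0.42, 0.199 and 0.0416) and Idh3b (0.42, 0.229 and 0.0145) were higher with the block, and Idh3a (-0.34, 0.194 and 0.0511) did not pass. Of the 9 blocked fits without 1 library, Ogdh passed in 9, Idh3b in 5 and Dlst in 2.

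Genes of the HIF pathway had estimates in both directions. Of 20, 15 were tested, 1 passed in limma (Bnip3, lower), and with the block 2 were higher and 5 lower. Bnip3, a mitophagy receptor gene, stood at 114, 82.7 and 74.8 FPKM in TSPAN8-high, 201, 130 and 143 in all ID4-EGFP+, and 307, 195 and 208 in TSPAN8-low. Every TSPAN8-high library lay below every library of the other groups, and the mean was 0.383 times that of TSPAN8-low. The log2 fold change was -1.37 (SE 0.23, limma adjusted p = 0.00793, and 2.56e-05 with the block), and the call held when any single library was left out (highest adjusted p 0.0386). It was lost without all libraries of replicate 2 (0.0841) or 3 (0.0628), and with Sertoli score and block together (0.34).

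Among the other HIF pathway genes, Vhl, which marks HIF for degradation (-0.72, limma adjusted p = 0.0837, and 0.00269 with the block), and Ankrd37 (-0.36, 0.143 and 0.0464) were lower with the block. P4ha2, a collagen prolyl hydroxylase gene, was higher with it (0.48, 0.121 and 0.0251). Of the HIF prolyl hydroxylase genes, Egln1 was lower in TSPAN8-high without overlap of the fractions. It stood at 5.30, 3.52 and 5.53 FPKM in TSPAN8-high against 10.4, 5.79 and 6.97 in TSPAN8-low. Egln2 was higher in TSPAN8-high in all 3 pairs of same-numbered libraries, and Egln3 in 1. Ero1l was also lower without overlap, at 57.3, 50.1 and 46.5 FPKM in TSPAN8-high against 83.4, 61.1 and 63.2 in TSPAN8-low. Bhlhe40 was higher without overlap, at 1.03, 1.43 and 1.53 FPKM in TSPAN8-high against 0.254, 0.674 and 1.01 in TSPAN8-low. On leaving out 1 library from the blocked fit, Vhl passed in 9 of 9 fits, P4ha2 in 4 and Ankrd37 in 1. Hif1a itself was at 19.2 ± 1.88 FPKM in TSPAN8-high against 15.0 ± 4.61 in TSPAN8-low (SD, n = 3 each) and did not pass in either fit. The list, which also holds genes that restrain HIF such as Vhl, had a median log2 fold change of 0.16, with 9 of 15 estimates above 0. Bnip3 and Ldha, which is not on the list, are both known HIF targets and differed between the fractions in opposite directions. Whether HIF had a part in either was not tested.

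**Figure D4:**
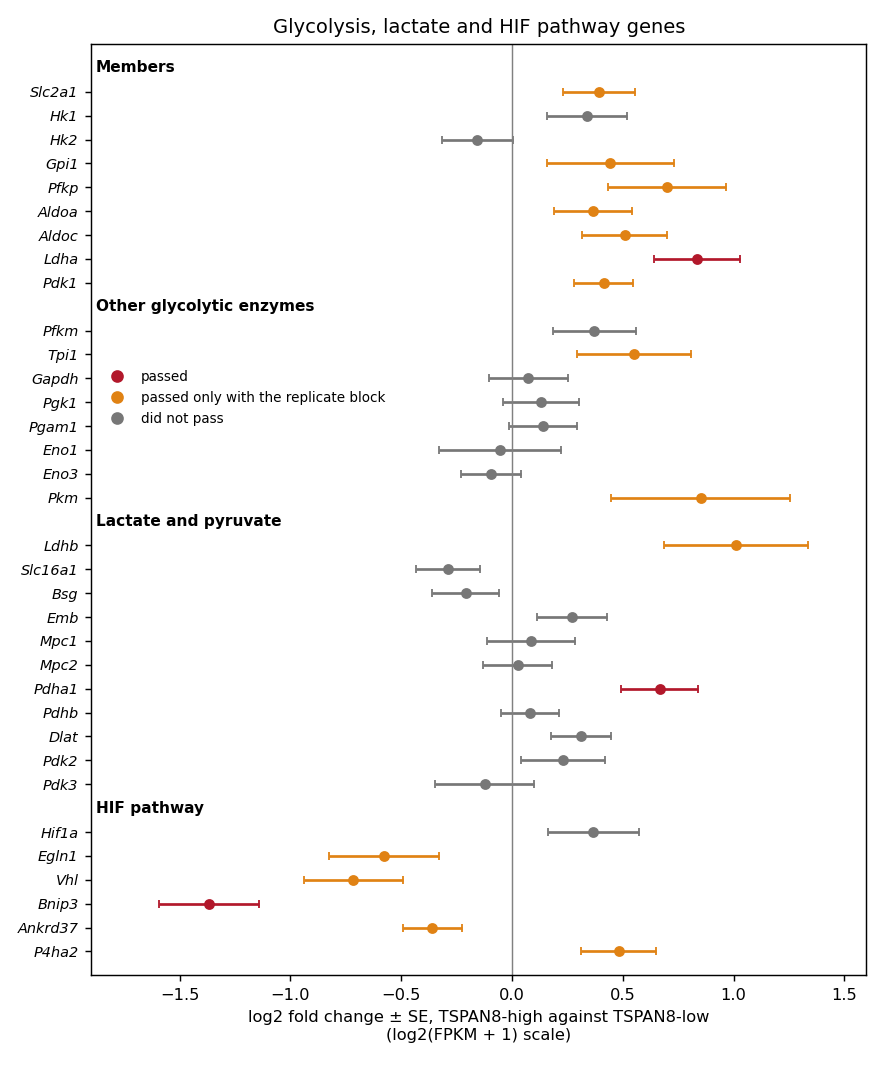
log2 fold change of TSPAN8-high against TSPAN8-low on the log2(FPKM + 1) scale (point, with ± 1 SE) for the tested genes of the set (Members), other glycolytic enzymes, genes of lactate and pyruvate handling, and 6 genes of the HIF pathway. Colour gives the call: Ldha, Pdha1 and Bnip3 passed in limma, 7 of the 9 members and several others passed with the replicate block, and Bnip3 at -1.37 lies farthest from 0.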

How the data were processed

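RNA of 9 libraries was sequenced after poly(A)-primed cDNA synthesis (SMART-Seq v4), which keeps no strand, so a gene and its antisense partner cannot be told apart. The authors deposited Cufflinks FPKM values. Per the submitters' processing notes TopHat2 2.0.12, Bowtie2 2.2.3.0 and mm9 were used (Cufflinks version and annotation: not given in the sources used here). A second deposited table, of normalized values (a signal), served as an alternative.

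Of 23813 entries, 768 on shared symbols were left out, and 11142 genes with at least 1 FPKM in at least 3 libraries were tested. limma 3.58.1 (R 4.3.3, eBayes with trend, two-sided) was fitted on log2(FPKM + 1), a scale that understates changes of low genes, in 1 fit over 3 groups, with Benjamini-Hochberg adjustment over all tested genes. Isozyme shares were tested by exact permutation (scipy 1.17.1). The fits without and with the block were run on simulated data with independent noise and no effect of replicate number. That simulation does not cover the Sertoli covariate or the pairing seen in the data. Promoters are from RefSeq GRCm38.p6.

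Same-numbered libraries of different groups deviated together (9 pairs, r of 0.27 to 0.48 across genes) while the 18 other pairs had r of -0.46 to 0.28, so the numbers were taken, from the data, to pair the samples, and the block was fitted as an alternative. Named were the set itself, Tspan8 and Id4, up to 4 genes of each of 11 pathway lists with the smallest p, list genes past the threshold, isozymes and the 5 genes nearest to Ldha. Gapdh, Slc16a3, Mpc2, Hif1a, Egln1, Egln2, Egln3, Ero1l, Bhlhe40 and the marker genes were named after their values were seen. Genes and lists were chosen with earlier results of these data known. Alternatives changed the pseudocount (to 0.1), filter, scaling, groups fitted, a Sertoli marker covariate and each library. The blocked fits with another scaling or without 1 library were added after seeing the data.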

Additional observations from a re-analysis of the deposited data

How the results depend on the processing

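With 1 of the 9 genes called between the fractions, the count was 7 with the replicate block, 0 with no filter on low values, 0 with the Sertoli marker score as covariate and 0 with that score and the block. It was 4 with the block and the authors' normalized values and 3 with the block and a common median. Calls over all tested genes moved too. Those higher in TSPAN8-high were 380 at first, 1313 with the block, 185 with no filter, 112 with the score and 2 with score and block. With the block they were 927 with the authors' normalized values and 825 with a common median. Leaving out 1 library, or all libraries of 1 number, gave 0 to 2 calls, and leaving out 1 library from the blocked fit gave 2 to 7, for example 6 without all ID4-EGFP+ replicate 1 and 5 without TSPAN8-low replicate 1. The count was unchanged with a pseudocount of 0.1, with either other scaling alone and with only the 2 fractions fitted. Over 42 gene results and 31 alternatives, 1062 values kept direction and side of the threshold, 184 newly passed, 37 no longer passed and 11 changed sign. Ldha kept its direction in all of these and had adjusted p = 0.0807 with no filter on low values, which tests more genes. Without all libraries of replicate 2 or 3, Bnip3 had adjusted p = 0.0841 and 0.0628. The sign changes were in genes that did not pass. Slc2a8 changed to -0.038 with the Sertoli score and -0.81 with score and block, to -0.10 without TSPAN8-low replicate 1, to -0.23 without all of replicate 1 (up to 0.32 without replicate 3), and, in the blocked fit, to -0.087 without TSPAN8-high replicate 1 and -0.19 without TSPAN8-low replicate 1. Pdk2 changed to -0.31 with score and block, -0.004 without replicate 1 (up to 0.41 without TSPAN8-low replicate 3) and -0.011 in the blocked fit without TSPAN8-low replicate 1. With score and block Slc16a1 changed to 0.024 and Emb to -0.15. The difference in share changed for Pfkl to -0.002 with the authors' normalized values, -0.022 without TSPAN8-high replicate 3 and -1.29 without TSPAN8-low replicate 2 (percentage points, up to 1.94 without TSPAN8-low replicate 3), and for Ldha to 1.10 without TSPAN8-low replicate 1 (down to -4.695 without TSPAN8-low replicate 3). The cause of these changes was not tested. The absolute depth is unknown, which limits what can be said of Pfkl and other genes under 1 FPKM.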
